A study of Homo sapiens with 9 samples.

Results

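The genes ZNF600 to ZNF799 are a numbered stretch of the human zinc finger genes, most of which encode DNA-binding proteins with arrays of C2H2 zinc fingers. Members were every protein-coding gene of an expression table whose symbol, looked up from its Ensembl identifier in GENCODE release 44, lies between ZNF600 and ZNF799. The rule took 99 of the 22290 genes of the table, out of 128 protein-coding genes with such symbols in the annotation, and the other 29 were not analysed here. RNA was sequenced from 9 libraries labelled IMR-32, the name of an established cell line from a human neuroblastoma. The parental group held 3 libraries of wild-type cells, the KD group 3 libraries labelled TRAP-1 knockdown and the OE group 3 libraries labelled TRAP-1 overexpression, TRAP-1 being a chaperone of the heat shock protein family in mitochondria. The modified cells had been made earlier, and whether each is 1 clone or a pool is not given in the sources used here. Values are regularized log2 levels (rlog), which are scaled for library size and pulled toward the mean of each gene, most strongly where reads are few. The depth of each single library cannot be read from such values.

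Many members carry a KRAB domain beside their zinc fingers. Through this domain they recruit the corepressor TRIM28, which brings histone methyltransferases and heterochromatin proteins to the bound DNA, very often at transposable elements. KRAB zinc finger genes arose by repeated local duplication and lie in clusters, the largest of them on chromosome 19, and paralogs within a cluster can be so alike that short reads cannot always be told apart.

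TRAP1 (ENSG00000126602), the gene targeted in the design, had rlog levels of 10.67, 10.66 and 10.65 in the parental libraries, 10.79, 10.79 and 10.83 in the libraries labelled KD and 10.67, 10.63 and 10.74 in the libraries labelled OE. The libraries labelled KD all lay above the parental ones, while those labelled OE overlapped them. The difference was 0.14 in the libraries labelled KD (adjusted p = 1.8e-05, limma) and 0.018 in those labelled OE (95% confidence interval -0.033 to 0.069, adjusted p = 0.64, limma). With the medians of 20-Mb blocks removed the latter was 0.060 and called (adjusted p = 0.0496, limma; 0.0496 to 0.78 over the alternatives), and without OE replicate 3 it was -0.012. TRAP1 RNA thus went against the label of the KD group, and other annotated genes overlap 28.5% of its exon sequence. KD and OE stand for labels of libraries throughout, also wherever a direction is drawn from them.

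Markers of adrenergic neuroblastoma were mixed, and several defining ones were low. Of 15 listed markers 9 had values, with 5 of them under a mean rlog of 5, among them MYCN at 2.54, PHOX2A at 1.34, TH at 2.73 and CHGA at 3.97. ISL1, a transcription factor of sympathetic neurons, was the most abundant at 9.29, and GATA3 stood at 7.27, HAND2 at 6.34 and CHGB at 5.77. The levels of the 9 markers, summed on the linear scale and taken back to log2, ran from 9.93 to 9.97 in the parental libraries, from 9.82 to 9.86 in those labelled KD and from 9.87 to 9.94 in those labelled OE. The methods of the study state that the line was authenticated before culture. Several defining markers were low all the same, and the cells are called only by their library labels. The mesenchymal marker VIM stood at 15.89, and the summed mesenchymal markers were at 15.82 in each parental library, ran from 16.25 to 16.26 in those labelled KD and from 15.99 to 16.02 in those labelled OE. PRRX1, a mesenchymal transcription factor, differed from parental by 1.29 in KD and by 0.69 in OE. Of 9 mesenchymal markers 8 had values, and 5 of them were under 5, COL1A1, COL1A2 and COL3A1 included. In KD 3 of the 8 were called higher and 1, LUM, lower (-0.18), and in OE 4 were higher and 0 lower. Of the protein-coding genes 29.8% were called higher and 34.2% lower in KD, and 20.8% higher and 24.1% lower in OE. VIM alone had means of 15.72 in parental, 16.09 in KD and 15.87 in OE, so it made up most of the summed mesenchymal level. Of the epithelial list 8 of 11 had values, led by KRT18 at 12.04, and of the Schwann cell list 2 of 4, led by S100B at 11.19. The 4 endothelial markers were led by PECAM1 at 9.50, with CDH5 at 0.62. PECAM1 differed from parental by 0.47 in KD and by -0.28 in OE, and KDR by -1.32 in KD and by -0.84 in OE. The summed endothelial markers ran from 9.95 to 9.99 in the parental libraries, from 10.07 to 10.11 in those labelled KD and from 9.48 to 9.62 in those labelled OE. The 3 haematopoietic markers with values, of 5 listed, were all under 5. The part of these marker shifts in the results for the zinc finger genes was not tested. In bulk RNA, fewer cells of a type and less RNA per cell cannot be told apart.

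The promoters of the 3 members with a difference of at least 1 between parental libraries and libraries labelled KD are shown because these members had the deepest falls of the 99, and the common direction in KD is fixed by this choice. RefSeq held a promoter of 300 bases, from 250 before to 50 after the start, for 77 of the 99 members, and the sequences are from GRCh38.p14, each read 5′ to 3′ on the strand of its gene. Capitals mark, on either strand, the CCAAT box, the GC box written as GGGCGG and the ETS-type core written as CCGGAAG. Marked stretches do not overlap in these windows. The ZNF682 window is chr19:20039456-20039755 on the minus strand, with its last 50 bases in the annotated gene, in exon sequence. The ZNF730 window is chr19:23116775-23117074 on the plus strand and lies wholly within the annotated gene, with 50 bases in exons. The ZNF611 window is chr19:52734995-52735294 on the minus strand, with 79 bases within the gene, 73 of them in exons.
ZNF682: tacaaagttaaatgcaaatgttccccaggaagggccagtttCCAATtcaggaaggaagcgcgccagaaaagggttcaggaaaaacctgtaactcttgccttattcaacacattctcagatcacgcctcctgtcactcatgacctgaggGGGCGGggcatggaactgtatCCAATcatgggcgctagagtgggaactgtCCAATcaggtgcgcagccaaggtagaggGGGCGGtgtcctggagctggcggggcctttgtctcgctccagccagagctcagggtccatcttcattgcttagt
ZNF730: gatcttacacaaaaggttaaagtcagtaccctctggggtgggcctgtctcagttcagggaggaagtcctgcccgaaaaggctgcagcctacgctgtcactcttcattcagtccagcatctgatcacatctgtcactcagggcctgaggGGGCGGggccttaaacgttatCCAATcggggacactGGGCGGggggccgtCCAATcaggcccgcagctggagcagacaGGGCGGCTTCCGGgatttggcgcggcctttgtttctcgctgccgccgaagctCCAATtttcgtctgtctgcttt
ZNF611: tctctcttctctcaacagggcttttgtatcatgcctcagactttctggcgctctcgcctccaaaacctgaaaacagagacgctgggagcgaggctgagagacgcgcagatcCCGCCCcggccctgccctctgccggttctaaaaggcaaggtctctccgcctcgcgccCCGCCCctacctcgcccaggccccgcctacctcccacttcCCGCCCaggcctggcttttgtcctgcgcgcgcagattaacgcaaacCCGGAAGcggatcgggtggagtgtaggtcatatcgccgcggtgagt

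The ZNF682 window held 3 CCAAT boxes, 2 GC boxes and no ETS-type core, and the ZNF730 window 3 CCAAT boxes, 3 GC boxes and 1 ETS-type core. The ZNF611 window held 3 GC boxes, 1 ETS-type core and no CCAAT box. ZNF682 and ZNF730 shared the run CCTGAGGGGGCGGGGC of 16 bases, which begins at base 142 of both windows and occurs on either strand in 6 of 27305 RefSeq promoters. Laid side by side without gaps, these windows had the same base at 45.3% of positions, against 22.3% for ZNF682 and ZNF611. The core CCGGAAG was found in 42.9% of the 77 member promoters, in 53.3% of the 30 on chromosome 19 and in 36.2% of the 47 elsewhere. This share was 10.6% among all 27305 promoters and 16.5% among those of the 11586 protein-coding genes with a level and a promoter. The CCAAT box was found in 49.4% of member promoters, 35.7% of all and 36.2% of those of the same protein-coding genes, and the GC box in 66.2% of member promoters, 44.5% of all and 66% of those of the same protein-coding genes. The ZNF682 window had 9 CpG dinucleotides, the ZNF730 window 16 and the ZNF611 window 26, where the median was 22 for member promoters, 13 for all promoters and 25 for those of the same protein-coding genes. These matches describe letters in the windows.

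Levels differed widely among the members. The mean rlog level over the 9 libraries ran from 0.26 to 12.62 with a median of 8.47, against 7.05 for all genes. Of the 99 members 57 had a mean of at least 8 and 17 a mean under 5. Per kb of exon, on the log2 scale, the highest levels were those of ZNF622 at 10.05, ZNF692 at 9.56, ZNF672 at 9.49, ZNF768 at 9.45 and ZNF706 at 9.06. ZNF622 takes part in the maturation of the large ribosomal subunit. The lowest levels per kb were those of ZNF655 at -2.81, ZNF630 at -1.77, ZNF722 at -1.38, ZNF716 at -0.62 and ZNF610 at -0.23. Within a group the SD of a member over its libraries had a median of 0.031. In 10 members another annotated gene overlapped more than 20% of the exon sequence, and because the library kit does not mark strand, reads of overlapping and antisense genes cannot be told apart there.

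The question put by the design is which genes change when TRAP-1 is lowered or raised. Against parental, 66 members were called in the libraries labelled KD at an adjusted p under 0.05 (limma, adjusted over all genes), 50 of them lower and 16 higher. Of all 22290 genes 53.7% were called, 26.9% lower and 26.9% higher, and of the 14697 protein-coding genes 34.2% were called lower and 29.8% higher. All 3 libraries labelled KD lay below all 3 parental libraries for 52 members and above them for 17, arrangements seen in 29.6% and 29.6% of all genes. The median difference of the members was -0.082, and that of all genes was -5.1e-04. With a difference of more than 0.5 also required, 11 members were lower, where the share of all genes was 2.27%, and 3 members were lower by at least 1, where it was 0.377%. The largest increase of a member was 0.46, below the size of 0.5 that 2.71% of all genes passed upward.

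With OE 33 members were called against parental, 18 lower and 15 higher, where 34.8% of all genes were called, 18% lower and 16.9% higher. Without parental replicate 1 the members had 18 lower and 9 higher, and with the medians of 20-Mb blocks removed 13 lower and 15 higher. Of the protein-coding genes 45% were called with OE, 24.1% lower and 20.8% higher. The members' differences ran from -0.29 to 0.26 with a median of -0.0022, whose sign turned with the scaling of the libraries (0.0039 with equal medians). Between the libraries labelled OE and those labelled KD 66 members were called, 46 of them higher and 20 lower in OE, where 47.3% of all genes were called, 23.5% higher and 23.8% lower, and 57.4% of the protein-coding genes, 29.9% higher and 27.5% lower. In this comparison 11 members were higher in OE by more than 0.5, where the share of all genes was 1.6%, and 4 by at least 1, where it was 0.332%. Both comparisons with parental share the same 3 parental libraries, so their values are set side by side.

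Chromosome 19 held 39 of the 99 members, and the split by chromosome was made after the differences had been seen. Of these 39, 28 were called lower and 3 higher in the libraries labelled KD, with a median difference of -0.23, and 10 were lower by more than 0.5. Those higher were ZNF627, ZNF784 and ZNF792. Of the 60 members on other chromosomes 22 were lower and 13 higher, with a median of -0.0084, and 1 of them, ZNF718, was lower by more than 0.5. Other zinc finger genes named by ZNF and a number gave 85 lower and 18 higher of 150 on chromosome 19 (median -0.13), and 51 lower and 40 higher of 135 elsewhere (median -0.014). The remaining 864 protein-coding genes of chromosome 19 had 265 lower and 232 higher, with a median of -0.0078. Whether the members differ from these lists was not tested. For OE, 3 of the 39 members on chromosome 19 were lower and 7 higher, with a median of 0.023. This median ran from 0.0099 without OE replicate 2 to 0.042 with the medians of 20-Mb blocks removed. Of the 150 other ZNF genes of the chromosome 18 were lower and 29 higher with OE (median -0.0016), and of its 864 remaining protein-coding genes 247 were lower and 146 higher (median -0.015).

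**Figure D1:**
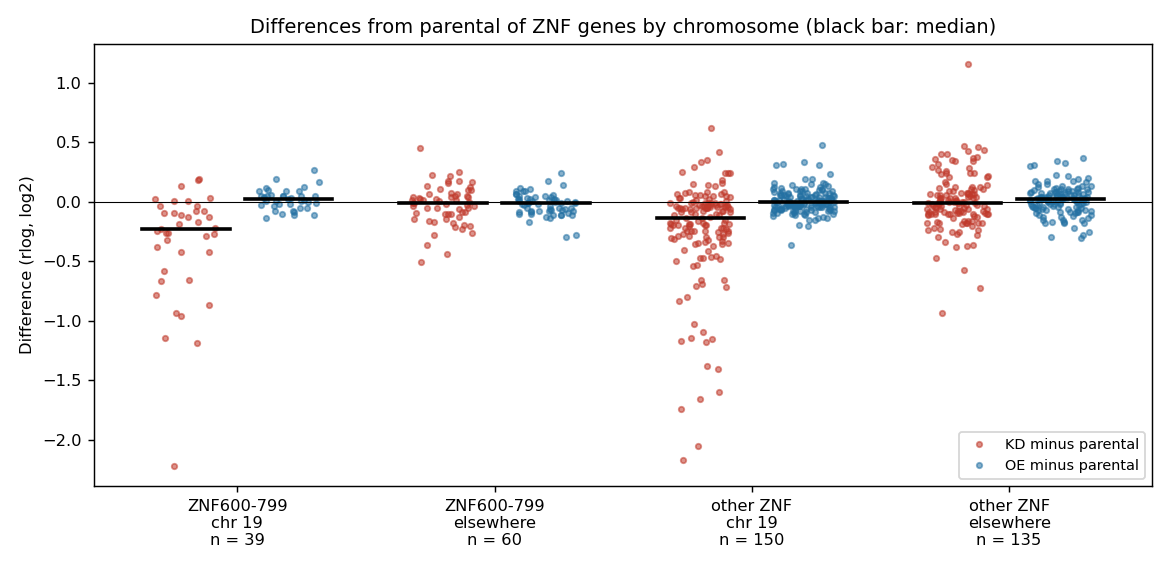
Difference from parental (rlog, log2) of each ZNF600 to ZNF799 gene and each other ZNF gene, on chromosome 19 and elsewhere, in the libraries labelled KD (red) and OE (blue). Points are genes, spread sideways for display, and black bars are medians; the KD median is -0.23 for the 39 members on chromosome 19 and -0.0084 for the 60 elsewhere.

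ZNF682 (ENSG00000197124, chromosome 19 from 19997058 to 20039505), a KRAB zinc finger gene, had the largest change of the members. Its rlog levels were 8.99, 8.94 and 8.98 in the parental libraries, 6.77, 6.73 and 6.76 in those labelled KD and 8.88, 8.89 and 8.90 in those labelled OE. The libraries labelled KD lay apart from the other 6 by more than any spread within a group, and those labelled OE lay just below the parental ones. Relative to parental, ZNF682 fell by 2.22 in KD, from 8.97 ± 0.026 to 6.75 ± 0.018 (SD, n = 3 each; standard error 0.036, adjusted p = 9.3e-31, limma). On the linear scale of rlog the level was 21.5% of parental. This share is an estimate from shrunken values, with an uncertain split of reads among paralogs. The fall ranked as number 5 of all 22290 genes, and as number 4 of 1352 genes with a mean level within 0.5 of its own. Its difference in OE was -0.081 (adjusted p = 0.078, limma), called only without a variance trend (adjusted p = 0.0099, limma; 0.0099 to 0.36 over the alternatives). OE was higher than KD by 2.14 (adjusted p = 4.5e-30, limma).

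ZNF730 (ENSG00000183850, chromosome 19 from 23075210 to 23147221) had levels of 9.35, 9.39 and 9.43 in the parental libraries, 8.24, 8.22 and 8.14 in those labelled KD and 9.47, 9.53 and 9.44 in those labelled OE. The libraries labelled KD were the 3 lowest and those labelled OE the 3 highest. It fell by 1.19 with KD, with a standard error of 0.034 (adjusted p = 6.5e-24, limma), to 43.9% of parental on the linear scale of rlog. With OE it was higher by 0.089 (adjusted p = 0.043, limma), a call that was lost without parental replicate 1 (0.070), parental replicate 2 (0.089), OE replicate 1 (0.093) or OE replicate 2 (0.064), and without a variance trend.

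ZNF611 (ENSG00000213020, chromosome 19 from 52702813 to 52735073), also of the KRAB type, had levels of 8.58, 8.65 and 8.59 in the parental libraries, 7.46, 7.48 and 7.43 in those labelled KD and 8.60, 8.59 and 8.57 in those labelled OE. Parental and OE libraries overlapped, and the libraries labelled KD lay below both. Its level fell by 1.15 with KD, with a standard error of 0.036 (adjusted p = 6.1e-23, limma), to 45.1% of parental. The difference in the libraries labelled OE was -0.018 (95% confidence interval -0.092 to 0.056, adjusted p = 0.76, limma).

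ZNF676 (ENSG00000196109, chromosome 19 from 22179089 to 22215801) had levels of 6.18, 6.36 and 6.27 in the parental libraries, 5.34, 5.34 and 5.35 in those labelled KD and 6.55, 6.52 and 6.53 in those labelled OE. The groups did not overlap, with KD lowest and OE highest. It fell by 0.93 in the libraries labelled KD (adjusted p = 3.1e-17, limma) and was higher by 0.26 in those labelled OE (adjusted p = 4.1e-05, limma), the largest increase of a member there. Between the libraries labelled OE and KD the difference was 1.20 (adjusted p = 7.3e-20, limma). Counted by the largest size of difference from parental, the members of at least 1 were ZNF682 at 2.22, ZNF730 at 1.19 and ZNF611 at 1.15. Those just outside were ZNF677 at 0.958, ZNF676 at 0.931 and ZNF600 at 0.866.

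**Figure D2:**
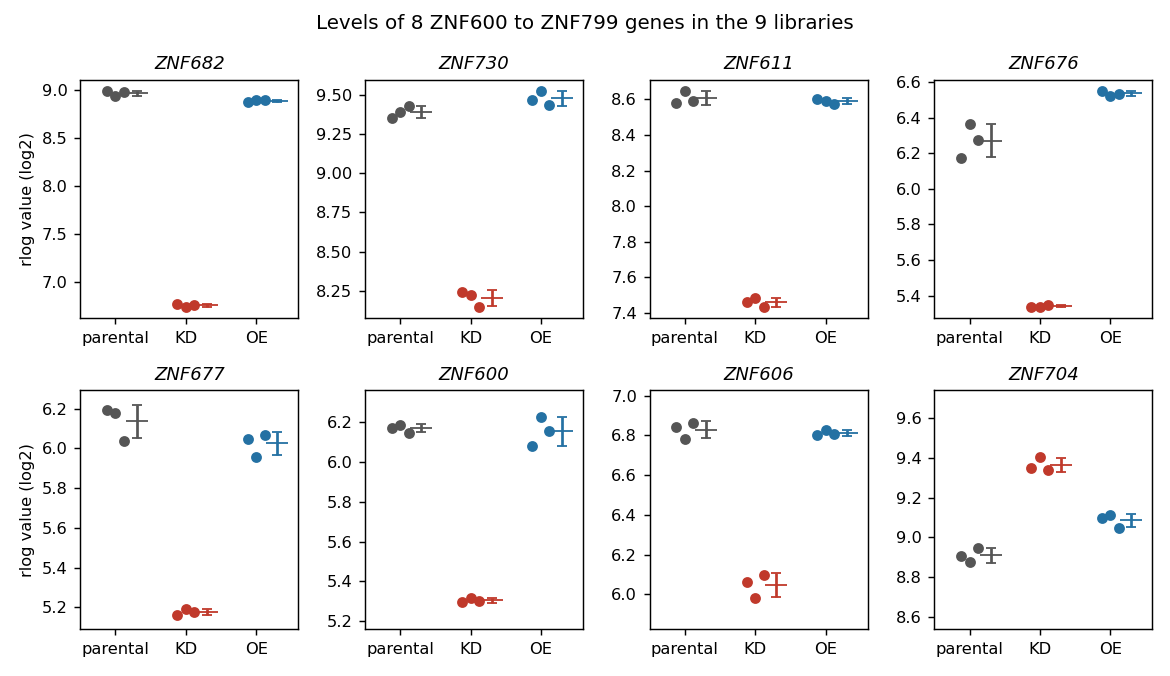
Level (rlog, log2) of 8 members in the 9 libraries, with dots for libraries and bars for the group mean and SD (n = 3); each panel has its own vertical range, which does not start at 0. In 7 panels the libraries labelled KD lie below the parental ones, and in the ZNF704 panel they lie above.

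ZNF677 had levels of 6.19, 6.18 and 6.04 in the parental libraries, 5.16, 5.19 and 5.18 in those labelled KD and 6.05, 5.96 and 6.07 in those labelled OE. ZNF600 had 6.17, 6.19 and 6.15 in the parental libraries, 5.29, 5.32 and 5.30 in those labelled KD and 6.08, 6.23 and 6.16 in those labelled OE. In both genes the libraries labelled KD lay below the other 6, which overlapped. ZNF677 fell by 0.96 (adjusted p = 2.3e-17, limma) and ZNF600 by 0.87 (adjusted p = 9.8e-17, limma) in the libraries labelled KD. ZNF606 fell by 0.78 (adjusted p = 6.4e-16, limma) and ZNF665 by 0.67 (adjusted p = 1.2e-13, limma), and neither was called in the libraries labelled OE. The other members lower by more than 0.5 were ZNF790 with -0.66, ZNF793 with -0.58 and ZNF718 with -0.51. ZNF718, on chromosome 4, had the widest spread of them, with levels of 8.12, 8.37 and 8.30 in the libraries labelled KD, and without KD replicate 1 its difference was -0.44 and without parental replicate 2 it was -0.49.

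The increases were smaller. ZNF704 (ENSG00000164684, chromosome 8 from 80628451 to 80874781) had levels of 8.91, 8.87 and 8.95 in the parental libraries, 9.35, 9.41 and 9.34 in those labelled KD and 9.10, 9.11 and 9.05 in those labelled OE. The groups did not overlap, and KD was highest. It rose by 0.46 with KD (adjusted p = 8.8e-14, limma) and by 0.18 in those labelled OE (adjusted p = 4.7e-05, limma). ZNF608 rose by 0.25 with KD (adjusted p = 1.0e-09, limma) and by 0.24 in those labelled OE (adjusted p = 7.5e-09, limma), with a difference of -0.010 for OE minus KD (adjusted p = 0.79, limma). ZNF627 was higher by 0.19 and 0.16 in KD and OE. ZNF629 (0.23), ZNF689 (0.22), ZNF784 (0.19), ZNF774 (0.17) and ZNF687 (0.17), the last a partner of ZMYND8 in a chromatin complex, made up the rest of the 8 largest increases in KD. On the linear scale of rlog, the level in the libraries labelled KD was between 21.5% and 137% of parental over the 99 members. Because rlog pulls values toward the mean of each gene, a group without reads would still show a level above 0. Whether any member was switched fully off or on therefore cannot be read from these values.

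Members called lower in the libraries labelled OE moved little. ZNF778 had levels of 9.52, 9.47 and 9.55 in the parental libraries, 9.20, 9.24 and 9.25 in those labelled KD and 9.21, 9.16 and 9.29 in those labelled OE. Both modified groups lay below parental and overlapped each other, with differences of -0.28 in KD (adjusted p = 7.1e-09, limma) and -0.29 in OE (adjusted p = 9.4e-09, limma). ZNF718 fell by 0.28 and ZNF672 by 0.17 in the libraries labelled OE. ZNF672 had a difference of 0.0020 in those labelled KD (adjusted p = 0.94, limma), and OE was lower than KD by a difference of -0.17 (adjusted p = 1.5e-08, limma). The next decreases in OE among members whose libraries did not overlap with parental were those of ZNF628 and ZNF641 (both -0.14), ZNF668 (-0.13), ZNF707 and ZNF706 (both -0.11). The call of ZNF641 was lost without parental replicate 2 or 3 (both -0.13) or OE replicate 1 (-0.087), and 37.3% of the exonic bases of ZNF668 are shared. The increases after those of ZNF676 and ZNF608 were ZNF729 with 0.19, ZNF704, ZNF627, ZNF658 with 0.14, ZNF699 with 0.12 and ZNF770 with 0.11.

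Members called lower in KD and higher in OE were ZNF676, ZNF729, ZNF730, ZNF738, ZNF699 and ZNF621. ZNF729 had levels of 3.76, 3.85 and 3.83 in the parental libraries, 3.63, 3.61 and 3.61 in those labelled KD and 3.99, 3.97 and 4.03 in those labelled OE. The groups did not overlap, although at this low level rlog differences are strongly shrunken, and they were -0.19 in KD and 0.19 in OE. ZNF621, on chromosome 3, had differences of -0.21 in KD and 0.060 in OE. The calls of ZNF738 in OE (0.087) and of ZNF699 in KD (-0.11) and OE (0.12) depended on single libraries. The parental levels of ZNF738 were 9.98, 10.13 and 9.98, and its difference in OE is larger without parental replicate 2. The call of ZNF738 was lost without parental replicate 1 (0.064) or 3 (0.059) and without OE replicate 2 (0.074) or 3 (0.085). That of ZNF699 in KD was lost without parental replicate 1 (-0.10) or 3 (-0.094) and without KD replicate 1 (-0.11) or 2 (-0.097). In OE it was lost without parental replicate 1 (0.13) or 2 (0.096) and without OE replicate 1 (0.090) or 3 (0.12).

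Runs of neighbouring members differed from one another. Taking members whose starts follow each other within 1 Mb, with at least 3 in a row, there were 10 runs with 57 members, and in 2 of them every member was called in the same direction in KD. Whether members of a run moved together more than other genes was not tested, and the counts stand beside the 34.2% of protein-coding genes and 50.5% of members called lower in KD. The run of chromosome 19 from 21082159 to 23914876 is a stretch of KRAB genes. In the libraries labelled KD 11 of its 12 members were lower (median -0.27), all but ZNF726, which had a mean rlog of 4.56. Of 11 other ZNF genes there 9 were lower, and of 2 protein-coding genes of other names 1 was lower (median -0.55). Of the members of this run 4 were higher in the libraries labelled OE and 8 were not called. In the run from 51889235 to 53389793, which holds ZNF611, ZNF600, ZNF665 and ZNF677, 10 of 13 members were lower in KD (median -0.22). The exceptions were ZNF649, ZNF766 and ZNF610, with mean rlog levels of 3.54, 6.40 and 1.59. Under 5 a missing call says little, since differences there are strongly shrunken. Of 16 other ZNF genes 13 were lower (median -0.44), and of 2 protein-coding genes of other names 1 was lower (median -0.20). The differences of the 13 members of this run in OE were small, from -0.11 for ZNF677 to 0.090 for ZNF701, with a median of 0.0037.

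The run with the largest median was that of ZNF790, ZNF793 and ZNF607 on chromosome 19 from 36817428 to 37696371, all lower in the libraries labelled KD, with a median of -0.58. There 8 of 10 other ZNF genes were lower, with a median of -0.33, and 2 of 4 protein-coding genes of other names. ZNF773, ZNF776 and ZNF606, from 57499915 to 57977076, had a median of -0.29, and ZNF773, at a mean rlog of only 2.90, was not called. Of the other ZNF genes between them 9 of 10 were lower. A run of the same chromosome that stood apart was that of ZNF628, ZNF784 and ZNF787, from 55476617 to 56087366, with ZNF784 higher and a median of 0.0072, where 4 of 4 other ZNF genes were higher. With OE this run had the largest median in size, -0.10.

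On other chromosomes there were 5 of the runs. ZNF696, ZNF623 and ZNF707 on chromosome 8, from 143289676 to 143684452, were lower in both modified groups, with medians of -0.27 in KD and -0.087 in OE. Of 11 other protein-coding genes of that stretch 6 were lower and 1 higher in KD. ZNF707 fell by 0.44 (adjusted p = 5.1e-15, limma) in the libraries labelled KD. With the median shift of its 20-Mb block removed, its difference in OE was -0.026 and no longer called (adjusted p = 0.46, limma; as high as 0.46 over the alternatives). The same removal is not given here for ZNF696 and ZNF623, which start within the same 0.395 Mb. Of 9 members on chromosome 16 from 30407414 to 31074422, 4 were higher and 1 lower in KD, ZNF689 and ZNF629 among those higher, and of 15 protein-coding genes of other names there 3 were higher and 4 lower. On chromosome 4 ZNF718 and ZNF732 were lower and ZNF721 was not called, and the 1 other ZNF gene between them was lower. On chromosome 7, 4 of 5 members from 149069641 to 150368790 were lower in KD with a median of -0.085, among them ZNF746, a substrate of the ubiquitin ligase parkin. Of the 6 other ZNF genes of that stretch 3 were higher and 2 lower, with a median of 0.069. The 3 members ZNF722, ZNF736 and ZNF680 on the same chromosome had differences between -0.0049 and 0.021 in KD. ZNF722 had a mean rlog of 0.40, where differences are strongly shrunken.

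**Figure D3:**
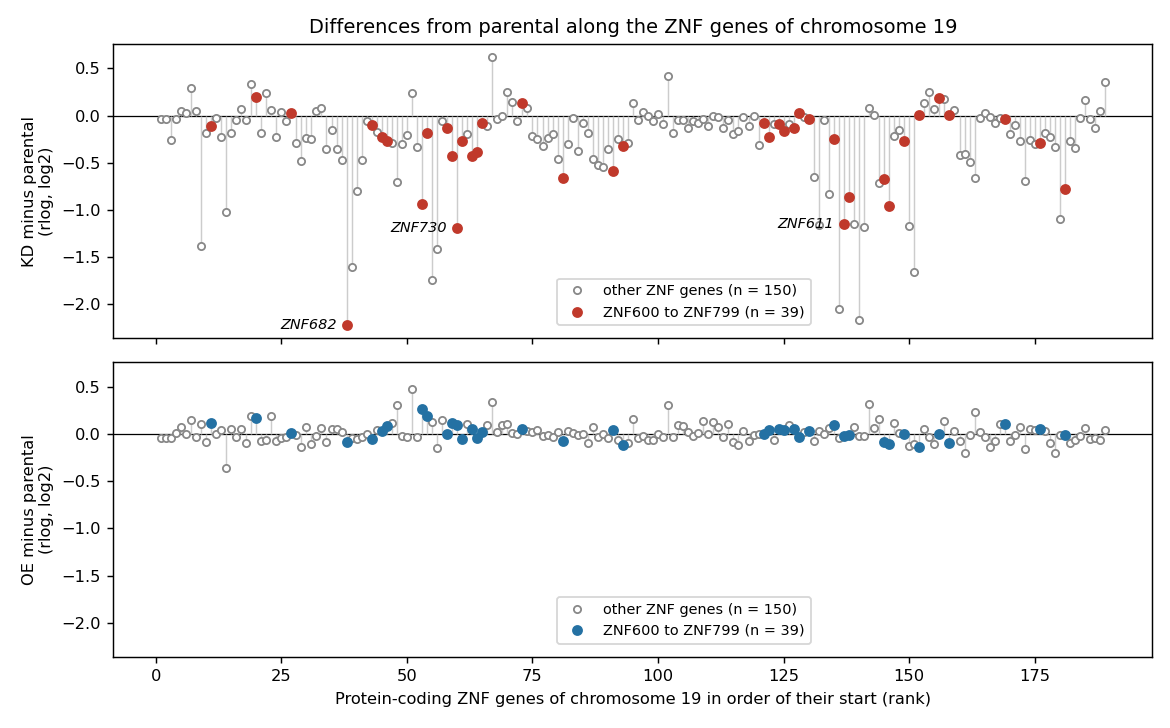
Difference from parental (rlog, log2) of the 39 members (filled) and 150 other ZNF genes (open) of chromosome 19 in the order of their starts, in the libraries labelled KD (upper panel) and OE (lower panel). KD values go down to -2.22 for ZNF682, and the OE panel has the same scale.

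Neighbours within 500 kb were read for each member with a difference of at least 1 between any groups. The other ZNF genes counted near each of them can include further members. On the whole of chromosome 19, 56.7% of the 150 ZNF genes outside the members were called lower and 12% higher in KD. In OE 12% of these 150 were lower and 19.3% higher. For the 39 members of the chromosome the shares were 71.8% lower and 7.69% higher in KD, and 7.69% lower and 17.9% higher in OE. Whether the counts near these members differ from those shares was not tested. Around ZNF682 all 5 other ZNF genes were lower in the libraries labelled KD. ZNF90 fell by 1.60, ZNF93 by 0.47, ZNF101 by 0.35, ZNF253 by 0.35 and ZNF14 by 0.15. ZNF93 is known as a repressor of LINE retrotransposons. The 8 protein-coding genes of other names in the window all start on the same side of ZNF682, at distances of -485 to -352 kb, with 2 lower, CILP2 (-0.87) and YJEFN3 (-0.39), and 4 higher, TSSK6 (0.35), LPAR2 (0.28), GMIP (0.27) and NDUFA13 (0.20). Nearer by, at 126 kb on the other side, the long non-coding RNA gene ENSG00000267383 fell by 1.87 in KD (adjusted p = 2.9e-27, limma). Its span overlaps that of ZNF90 on the opposite strand. Other annotated genes overlap 12.1% of its exon sequence and 22.7% of that of ZNF90. Because the kit does not mark strand, the falls of this gene and of ZNF90 are not clearly separate.

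Around ZNF611, 12 of 17 other ZNF genes were lower and 1, ZNF160, was higher (0.082) in the libraries labelled KD. The deepest falls were those of ZNF320 with -2.17 (adjusted p = 4.4e-32, limma) and ZNF83 with -2.05 (adjusted p = 2.8e-30, limma), nearly the size of that of ZNF682. ZNF888 fell by 1.18, ZNF528 by 1.15 and ZNF28 by 1.14. ZNF766, ZNF480, ZNF610 and ZNF415 were not called, with mean rlog levels of 6.40, 4.29, 1.59 and 0.61, and under 5 a missing call says little, since differences there are strongly shrunken. The window held 1 further protein-coding gene, a read-through of ZNF816 and ZNF321P, with -0.41. With OE 3 of these 17 genes rose, ZNF160 by 0.32, ZNF347 by 0.16 and ZNF415 by 0.060.

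Around ZNF730, 6 of 7 other ZNF genes were lower in the libraries labelled KD, with ZNF492 at -1.41, ZNF675 at -0.43 and ZNF728 at -0.42. ZNF99, at a mean rlog of 2.59, was not called, nor was the 1 protein-coding gene of another name. The long non-coding RNA genes of this window, ENSG00000268981 and LINC01224, fell by 1.28 and 0.95 in KD. ZNF91, a repressor of SVA retrotransposons, fell by 0.19 in KD and was higher by 0.11 in OE. Around ZNF676, 6 of 7 were lower and 1 higher, ZNF208 (0.24), which was higher by 0.48 in the libraries labelled OE. ZNF98 fell by 1.74 there in KD. These ZNF genes are paralogs with alike sequences, so that the split of reads among them is uncertain.

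**Figure D4:**
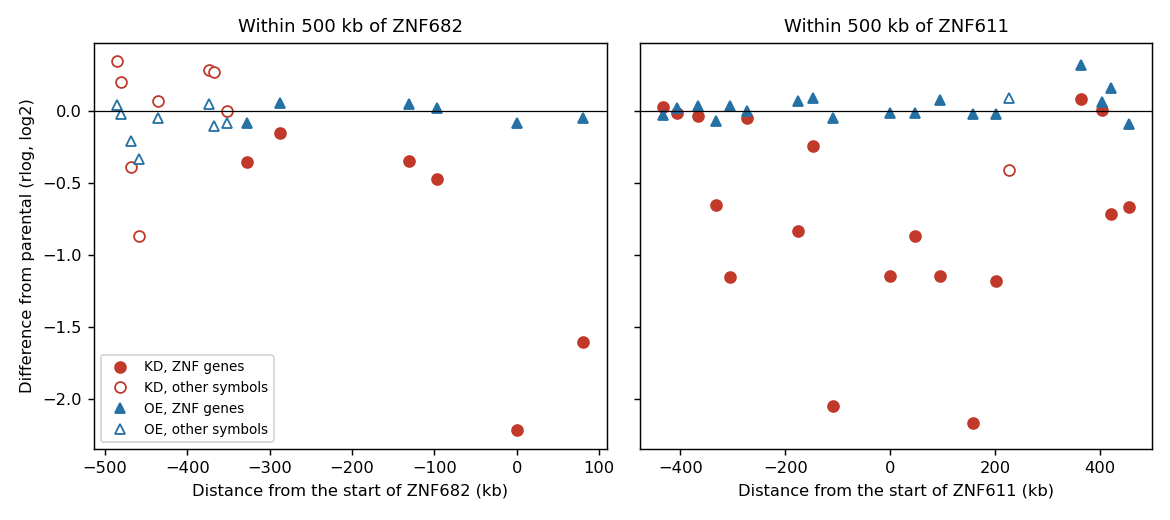
Difference from parental (rlog, log2) of protein-coding genes within 500 kb of the start of ZNF682 (left) and ZNF611 (right), against distance in kb, in the libraries labelled KD (circles) and OE (triangles), filled for ZNF genes. KD values reach -2.22 at ZNF682 and -2.17 at ZNF320, while OE values stay between -0.33 and 0.32.

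Genes of the corepressor machinery that KRAB zinc fingers use were read from a list of 35, of which 34 had values. With KD 11 were higher and 11 lower (median -0.0028), in those labelled OE 10 higher and 10 lower (median -0.014), and between OE and KD 11 higher and 12 lower. Of the protein-coding genes 29.8% were higher and 34.2% lower in KD, 20.8% higher and 24.1% lower in OE, and 29.9% higher and 27.5% lower between OE and KD. TRIM28 itself had differences of -0.049 in KD and -0.12 in OE, both called. CBX5, a heterochromatin protein, rose by 0.59 with KD. DNMT1, the maintenance DNA methyltransferase, fell by 0.41, EHMT1, a histone methyltransferase, by 0.35 and TASOR, a subunit of the HUSH silencing complex, by 0.26 in KD. With OE the largest differences were those of UHRF1 (-0.28), which recruits DNMT1, CHD3 (0.22), SUV39H2 (-0.16), a histone methyltransferase, and DNMT1 (-0.16). Their part in the differences of the zinc finger genes was not tested.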

How the data were processed

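Libraries made with the TruSeq RNA v2 kit, which does not mark strand, were sequenced by the authors. Per the methods, the authors used cutadapt for trimming, hisat2 for alignment (GRCh38) and featureCounts for gene counts, and dropped genes with fewer than 10 reads in total. The deposited values are regularized log2 levels for each library, a transformation of DESeq2, which the methods of the paper do not name. Versions, annotation and strand setting are not given in the sources used here. A further 3 columns without values were not used, and 95 identifiers were not matched to the annotation. Group means were compared over all 9 libraries with limma 3.58.1 in R 4.3.3 (variance trend, Benjamini-Hochberg adjustment over all 22290 genes, two-sided), tested on simulated data. Nothing says that libraries came from separate cultures, so p-values measure a spread that may be technical. Named were members with a difference of at least 1, the 8 largest called non-overlapping changes in each direction against parental, members called in opposite directions, neighbours within 500 kb, runs, corepressors with the 4 largest changes, and the 5 highest and lowest levels per kb. Exceptions to counts, other single neighbours and TRIM28 were chosen after their values were seen. Members and lists were chosen with earlier results of these data known. Alternatives were other variance models, a filter at a mean rlog of 5, other scalings, only the groups compared, a replicate block, removal of 20-Mb block medians and leaving out each library.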

Additional observations from a re-analysis of the deposited data

How the results depend on the processing

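Under 17 alternatives the count of members called ranged from 61 to 68 in the libraries labelled KD, from 26 to 35 in those labelled OE and from 58 to 68 between OE and KD. The filter at a mean rlog of 5 left 82 members, so its counts are out of these 82. Members called lower in KD numbered from 43, of the 82 left by the filter, to 51. The median difference in KD of the members on chromosome 19, called or not, stayed between -0.27 and -0.22. Of 1221 values for 72 differences of single genes, 1186 kept direction and side of the threshold, 31 lost the call, 2 gained it and 2 turned. Those that turned did so with the medians of 20-Mb blocks removed, where OE minus KD was -0.12 for ZNF658 and -0.011 for ZNF706. With the same removal TRAP1 in the libraries labelled OE was called, at 0.060. The cause was not tested. With the replicate number as a block 66 members were called in KD, 35 in OE and 67 between OE and KD. Libraries of the same number had correlations of -0.046 to 0.10 over 9 pairs and correlated best with their own number in 5 of 18 cases, so the numbers were not taken as a pairing. The depth of each single library cannot be read from rlog values. These shrink differences most at low levels, so that changes of the 17 members with a mean under 5 are understated. Differences at higher levels are shrunken too, so every share of parental given for a single member is an estimate from shrunken values.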
